A study of Mus musculus with 16 samples.

Results

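c-di-GMP is a cyclic dinucleotide that bacteria use as a second messenger, and its transcriptional effect was measured here in wild-type bone marrow-derived DCs (BMDCs), the unmanipulated genotype of a series of 16 samples. The 4 wild-type samples were compared as conditions: 2 were left untreated and 2 were treated with c-di-GMP for 18 h. All were BMDCs of C57BL/6 mice, which the study's methods describe as sex-matched and 6 to 12 weeks old, grown for 6 days with GM-CSF and IL-4, and none carried a knockout allele. The labels give a dose of 25 μg/ml, whereas the study's legends give 50 μg/ml. The other 12 samples were Tmem173-/-, Irf1-/- and Irf3/7-/- BMDCs, each untreated or treated for the same time, and they enter below only where their own responses were set beside that of the wild type. BMDC cultures of this kind hold dendritic cells and macrophages in a mixture, so a lower value of a transcript can reflect fewer cells of a type or less RNA per cell, and these cannot be told apart in bulk RNA.

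The authors deposited 1 FPKM per gene and condition (fragments scaled by transcript length and by the number mapped), with the lower and upper bound of its interval. The FPKM combines the 2 samples of a condition, so no spread between samples could be computed and no p-value is given. Genes entered the comparison if either condition reached 1 FPKM and neither value carried an error flag, and are called tested below, which held for 11201 of 23356 genes. It was called when its log2 change, computed after adding 0.1 FPKM to each value, exceeded 2-fold and the authors' intervals did not overlap. "Rose" and "fell" are used below only for such calls. Among genes with at least 10 FPKM, the median distance from the FPKM to the farther bound was 25.9% of the value without treatment and 25.7% after c-di-GMP. FPKM do not give the depth of a sample, so the intervals are the only measure of precision here.

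Cyclic dinucleotides bind STING, an adaptor of the endoplasmic reticulum membrane that is encoded by Tmem173. Bound STING recruits the kinase TBK1, which activates IRF3 and leads to type I interferon, and it also activates NF-kB. Secreted interferon acts back on the cells through its receptor and a complex of STAT factors and IRF9, which binds interferon-stimulated response elements (ISREs) in the promoters of antiviral genes. In dendritic cells, such signals are known to induce maturation, in which antigen uptake gives way to migration, costimulation and cytokine secretion.

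c-di-GMP changed about as many genes upwards as downwards. Of the 11201 genes, 1175 rose (10.5%) and 1116 fell (9.96%), and the median log2 change over all tested genes was 0.00. Counts per list below are to be read against these shares. The rises were larger: their median log2 change was 1.64, against -1.45 for the falls, 399 rises against 193 falls exceeded 4-fold, and 84 against 12 exceeded 16-fold. When both conditions were rescaled to the same total FPKM, the median log2 change of all genes moved to -0.23 and the split became 860 rises against 1578 falls.

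**Figure D1:**
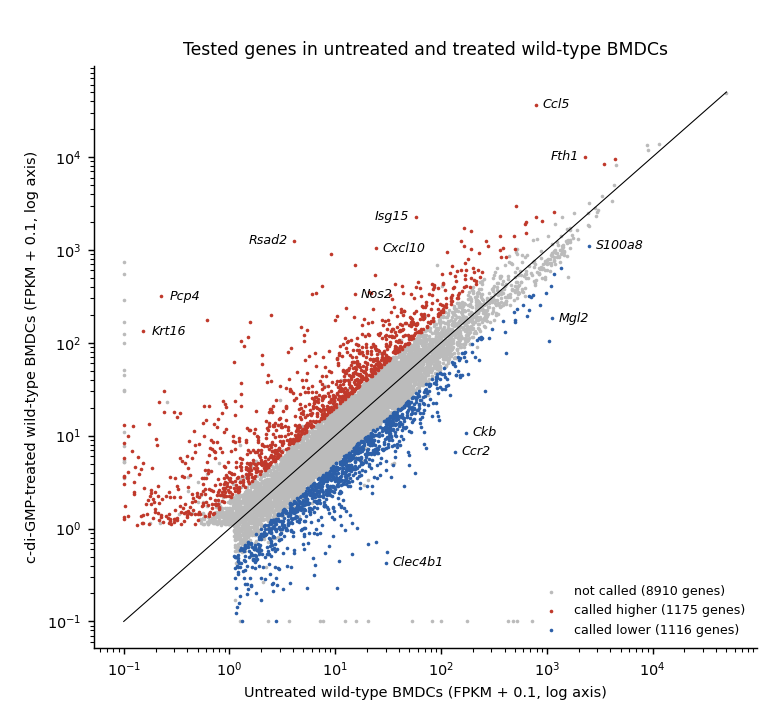
FPKM of the 11201 tested genes in untreated (horizontal) and c-di-GMP-treated (vertical) wild-type BMDCs, 0.1 FPKM added, both axes logarithmic. Each point is a gene, red for the 1175 called higher, blue for the 1116 called lower, grey for the 8910 not called, and the line marks equal values; points at the lower ends of the axes are listed at 0 in that condition, the grey ones being mostly short RNA genes with overlapping intervals.

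Rises started from every level of expression. Of the rises, 243 had under 1 FPKM without treatment, 426 had 1 to under 10 FPKM and 506 had 10 FPKM or more. After c-di-GMP, 249 of them reached 100 FPKM, and 17 of these had started under 10 FPKM. Of the falls, 219 ended under 1 FPKM, 628 at 1 to under 10 FPKM and 269 at 10 FPKM or more. The genes that rose made up 8.27% of the summed FPKM without treatment and 28.9% after c-di-GMP, short non-coding RNA genes left out, and those that fell went from 8.29% to 2.51%. A single chemokine gene, Ccl5, accounted for 0.153% before and 5.88% after treatment, and moved from rank 110 to rank 1 among these genes.

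ISRE cores are shown for antiviral genes, the list with the highest median log2 change among those with more than 3 tested genes. The 250 bases before the RefSeq gene start (GRCm38.p6) are printed, 5′ to 3′ on the strand of the gene, for the 3 antiviral effector genes with the largest rise whose promoter holds an ISRE core, with the core in capitals. The core searched was GAAANNGAAA on either strand, and it was found in 3.44% of 32851 mouse promoters of 300 bases in the same table. Rsad2 had 1 match and Ifit3 and Ifit1 had 2 each, all of them on the strand opposite to the gene.
Rsad2, chr12:26456453-26456702, minus strand: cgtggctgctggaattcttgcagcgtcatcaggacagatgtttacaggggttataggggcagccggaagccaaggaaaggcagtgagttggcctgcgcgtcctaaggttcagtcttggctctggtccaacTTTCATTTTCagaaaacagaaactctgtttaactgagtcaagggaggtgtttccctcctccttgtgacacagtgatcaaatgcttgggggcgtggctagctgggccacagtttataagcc
Ifit3, chr19:34583279-34583528, plus strand: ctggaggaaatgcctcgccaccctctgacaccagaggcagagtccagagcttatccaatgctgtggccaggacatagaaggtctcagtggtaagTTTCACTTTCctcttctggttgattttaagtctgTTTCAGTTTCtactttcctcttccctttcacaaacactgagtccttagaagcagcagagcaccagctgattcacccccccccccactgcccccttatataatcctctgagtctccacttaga
Ifit1, chr19:34640639-34640888, plus strand: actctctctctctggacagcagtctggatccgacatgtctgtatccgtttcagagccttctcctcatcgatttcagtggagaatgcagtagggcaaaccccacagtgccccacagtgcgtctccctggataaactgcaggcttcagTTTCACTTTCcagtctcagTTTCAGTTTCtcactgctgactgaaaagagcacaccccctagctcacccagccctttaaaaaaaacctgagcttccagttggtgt

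Counted from the gene start, the match begins at position -120 in Rsad2, at -156 and -122 in Ifit3 and at -104 and -85 in Ifit1. A match of letters is not a bound site. Of the 40 antiviral effectors, 30 had a promoter in the table and 13 of these held the core, while strongly induced members such as Oasl1, Cmpk2 and Ifit2 had none in this window. The promoters printed were chosen for holding it. No share is given for genes that rose against genes that fell, since that check is void: only 77.7% of the rises and 79.7% of the falls had a promoter in the table, under the 80% that such a comparison was taken to need. The antiviral list, with 30 of 40, was covered no better, so its 13 is a count and is not compared with all promoters.

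The type I interferon genes were silent without treatment and low after it. Ifnb1, the interferon gene first induced downstream of IRF3, was listed at 0 without c-di-GMP and had 2.93 FPKM (authors' interval, 1.76 to 4.08) after it. Ifna4 was likewise listed at 0 and then at 3.53 FPKM (1.91 to 5.06). The Ifna genes are close copies of one another, so reads may be assigned to the wrong one, and 16 of the 19 interferon genes in the table stayed under 1 FPKM in both conditions. Ifng, which encodes interferon-γ, was already at 34.6 FPKM (23.4 to 45) and rose to 299 FPKM (205 to 367), 8.64-fold.

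Transcripts of interferon-γ are typical of NK and T cells, and markers of both were present in these cultures. Among T cell genes, Cd3e, a chain of the T cell receptor complex, had 9.18 FPKM untreated and 5.41 FPKM treated, and Cd8a 21.8 and 16.5 FPKM, whereas Cd4 stayed under 1 FPKM. The summed FPKM of the 17 T cell markers in the table went from 121 to 125, with 1 of 14 tested members higher (Il7r, the IL-7 receptor, from 15.2 to 48.8 FPKM), 3 lower (Cd5, Zap70 and Tcf7) and a median log2 change of -0.56. Among NK and cytotoxic genes, Gzma had 349 and 329 FPKM and Gzmb 321 and 336 FPKM, with overlapping intervals, and the receptor gene Ncr1 was under 1 FPKM in both conditions. Of 15 tested members of that list, Ifng alone rose and 4 fell, namely Eomes, Tbx21, Xcl1 and Klrb1c, with log2 changes of -1.80, -1.31, -2.31 and -2.54. The summed FPKM of that list's 19 genes, Ifng included, went from 996 to 1234, a gain smaller than that of Ifng alone. The part of these cells in the rise of Ifng was not tested.

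Antiviral effectors rose almost without exception. Of 40 such genes tested, 36 rose and none fell, with a median log2 change of 2.71, beside 10.5% and 0.00 for all genes. Rsad2, which encodes viperin, an enzyme that makes a chain-terminating nucleotide, rose from 3.99 FPKM (2.90 to 5.08) to 1245 FPKM (899 to 1588), or 312-fold. Its chromosomal neighbour Cmpk2, a nucleotide kinase of mitochondria, rose from 7.32 to 410.1 FPKM. Ifit1, Ifit2 and Ifit3, whose products bind foreign RNA ends, rose from 5.89 to 337 FPKM, from 6.52 to 341 FPKM and from 1.39 to 115 FPKM. Isg15, a ubiquitin-like modifier, had the highest level of the list after treatment, 2262 FPKM (1496 to 2756) against 57.7 FPKM (39.3 to 75.6) without it. Usp18, the protease that removes ISG15 from proteins, rose from 42.3 to 404 FPKM.

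Members of the oligoadenylate synthetase system rose to different extents. Oasl1 rose from 8.92 to 911 FPKM and Oasl2 from 33.1 to 323 FPKM, while Oas3, Oas2 and Oas1a rose 8.77-fold, 8.98-fold and 4.95-fold. Among the membrane-associated restriction factors, Ifitm3 rose from 191 to 1583 FPKM and Bst2, which encodes tetherin, from 155 to 1253 FPKM, whereas Ifitm1 had 73.7 FPKM untreated and 46.6 FPKM treated, the only member of the 40 with a value below its untreated level. Samhd1, which depletes nucleotides, and Apobec3, a cytidine deaminase, did not pass the call, with log2 changes of 0.94 and 0.45. Mx2 rose 31.2-fold and Mx1 5.51-fold.

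Guanylate-binding proteins and immunity-related GTPases, which attack the membranes around intracellular pathogens, rose less per gene but nearly as uniformly. Of 18 tested, 16 rose and none fell, with a median log2 change of 1.51. Gbp2 was the most abundant, at 382 FPKM untreated and 1036 FPKM treated. Gbp5 rose from 57.5 to 398 FPKM, Gbp3 from 31.1 to 175 FPKM and Iigp1 from 45.9 to 161 FPKM. Many of these genes had 10 FPKM or more before treatment. Antiviral genes varied in this, with Isg15 and Bst2 above that level and Ifit3 and Mx2 below it. Tgtp2 (13.3 and 32.7 FPKM) was not called, as its intervals overlapped, and it shares its locus with Ifi47, which rose from 102 to 256 FPKM.

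**Figure D2:**
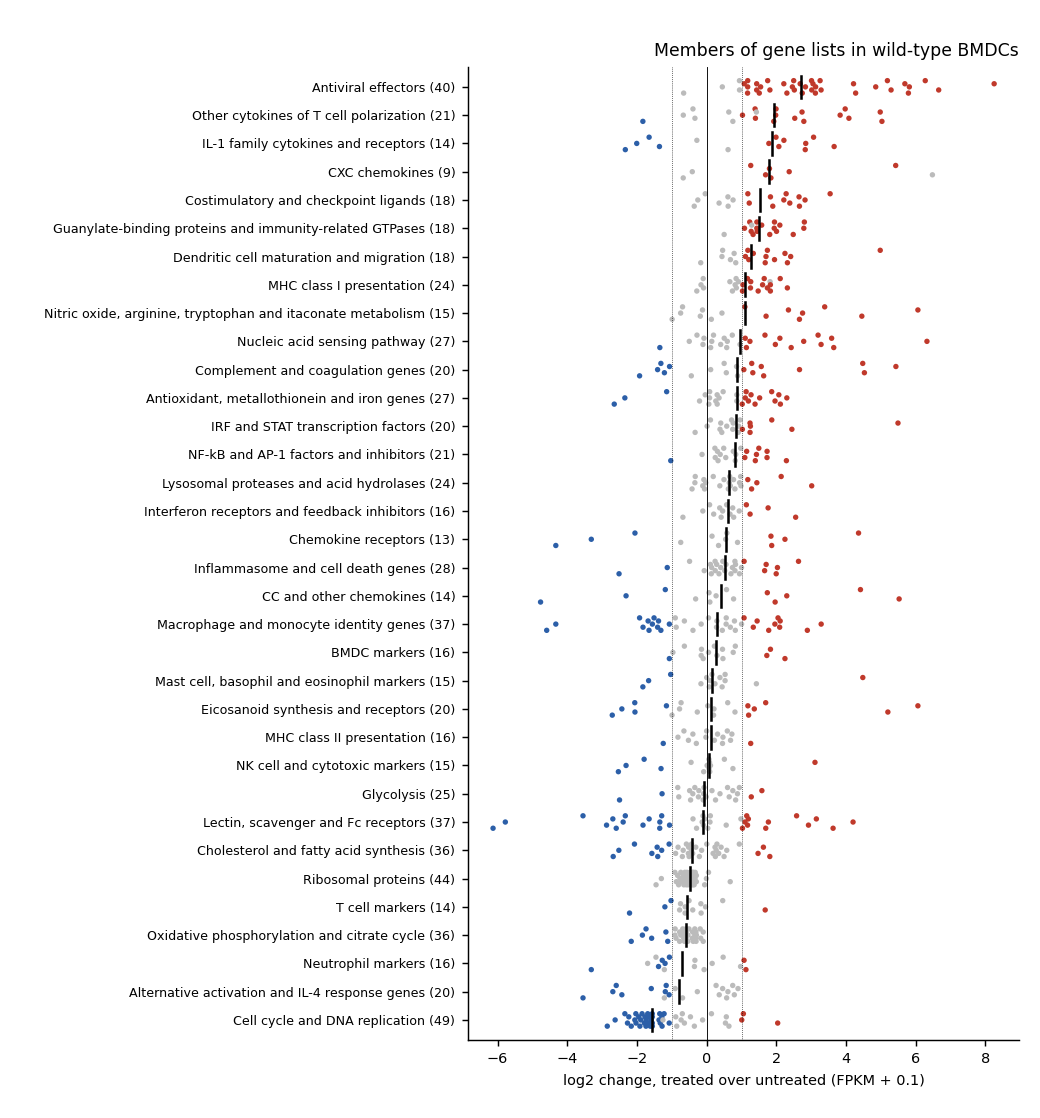
log2 change (treated over untreated, 0.1 FPKM added) of the tested members of 34 gene lists in wild-type BMDCs, with the number of tested members in parentheses. Each point is a gene, red called higher, blue called lower and grey not called, the black bar is the list's median and dotted lines mark 2-fold; antiviral effectors lie farthest to the right (median 2.71) and cell cycle genes farthest to the left (median -1.56).

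Many sensors upstream of interferon rose together with the effectors, while Tmem173 itself was not called. Of 27 tested genes of the nucleic acid sensing pathway, 13 rose and 1 fell. The RNA sensors Ifih1 (MDA5), Ddx58 (RIG-I) and Dhx58 (LGP2) rose from 7.52 to 69.7 FPKM, from 14.3 to 61.6 FPKM and from 12.6 to 87.2 FPKM. The endosomal receptors Tlr3, Tlr7 and Tlr9, which recognize RNA or DNA, rose from 0.606 to 6.77 FPKM, from 2.14 to 11.9 FPKM and from 5.16 to 11.2 FPKM. Tmem173 was at 103 FPKM untreated and 118 FPKM treated, and Mb21d1, which encodes the cyclic GMP-AMP synthase cGAS, at 7.66 and 10.2 FPKM, with log2 changes of 0.19 and 0.40. Of the kinases, Tbk1 rose from 25.8 to 56.9 FPKM, and Ikbke was at 31.0 and 46.3 FPKM. Trex1, the exonuclease that degrades cytosolic DNA, rose from 82.9 to 325 FPKM. Nlrc3, a negative regulator of STING signalling, was the member that fell, from 2.07 to 0.755 FPKM.

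Transcription factors responded selectively. Of 20 tested IRF, STAT and related genes, 7 rose and none fell, led by Irf7, the factor that amplifies the interferon-α genes, which rose 45.2-fold to 687 FPKM. Irf8, needed for dendritic cell development, and Stat2 rose from 55.5 to 303 FPKM and from 42.4 to 155 FPKM. Irf3 was at 19.9 and 15.8 FPKM, without a call, and Irf1, whose values are given with the knockouts below, was not called either. Of 21 tested NF-kB and AP-1 genes, 8 rose (38.1%) and 1, Jund, fell (4.76%), beside 10.5% and 9.96% among all genes. The rises included inhibitors of the pathway, with Tnfaip3 (A20) from 34.4 to 114 FPKM, Nfkbib from 40.1 to 133 FPKM and Tnip1 from 40.1 to 108 FPKM, whereas the subunit genes Rela, Rel and Nfkb1 had log2 changes of 0.82, 0.24 and 0.49 and were not called. Among receptors and feedback inhibitors, 4 of 16 rose (25.0%): Socs3 (from 29.2 to 172 FPKM), Il10ra, Il10rb and Ifnar2. Socs1 had 209 FPKM before and 311 FPKM after treatment and was not called.

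Chemokines were among the largest changes in level. Ccl5, which attracts T cells, eosinophils and other leukocytes, rose from 796 FPKM (459 to 824) to 36577 FPKM (21537 to 37102), the largest gain in FPKM of any called gene. Monocyte attractants rose as well: Ccl2 from 279 to 1087 FPKM, Ccl7 from 65.2 to 321 FPKM, Ccl12 from 8.95 to 30.1 FPKM and Ccl8 from 0.312 to 8.67 FPKM. Of 14 tested CC and related chemokines, 5 rose and 3 fell, the falls being those of Ccl1 (from 14.3 to 0.427 FPKM), Ccl24 (from 746 to 327 FPKM) and Xcl1 (from 10.4 to 2.01 FPKM). Ccl17, at 11439 and 13781 FPKM, and Ccl3 and Ccl4 were not called. Ccl22 was not tested, because the table flags its treated value, listed at 0, as a failed estimate.

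Of 9 tested CXC chemokines 6 rose. Cxcl10, a ligand of CXCR3, rose from 24.1 FPKM (16.3 to 31.5) to 1037 FPKM (710.2 to 1332), and Cxcl9, another ligand of it, rose from 21.7 to 52.2 FPKM. Cxcl11, the third ligand, was at 0.156 FPKM untreated and 22.7 FPKM treated, but its intervals of 0 to 0.672 and 0.166 to 50.5 FPKM overlapped, and the table gives it a locus that overlaps that of Cxcl10. The neutrophil attractants Cxcl1, Cxcl2 and Cxcl3 rose from 0.998 to 3.72 FPKM, from 6.79 to 24.6 FPKM and from 15.9 to 82.4 FPKM.

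Receptors for chemoattractants changed in both directions. Of 13 tested, 4 rose (30.8%) and 3 fell (23.1%), beside 10.5% and 9.96% among all genes. Ccr7, which guides dendritic cells to lymph nodes, rose from 265 FPKM (199 to 331) to 1257 FPKM (913 to 1589.9), and Ccrl2, an atypical receptor, from 5.00 to 104 FPKM. Ccr2, the receptor of monocytes for CCL2, fell from 135 FPKM (95 to 171) to 6.62 FPKM (4.79 to 8.45). Cxcr2, a receptor of neutrophils for CXCL1 and CXCL2, fell from 72.4 to 7.20 FPKM, and the leukotriene B4 receptor gene Ltb4r1 from 65.3 to 15.6 FPKM. For both the CCR2 and the CXCR2 system, ligand and receptor transcripts thus changed in opposite directions. Neutrophil markers in the table gave 2 rises and 5 falls among 16 tested, and summed FPKM of 4261 and 2119. Most of both sums, and nearly all of their difference, came from S100a8 and S100a9, which were among the falls. S100a8 had 2531 and 1105 FPKM and S100a9 1350 and 643 FPKM, so the sums do not describe the other markers.

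Cytokines that direct T cell responses were induced broadly. Of 21 tested, 14 rose and 1 fell, with a median log2 change of 1.92. Il6 rose from 21.5 FPKM (13.9 to 27.8) to 339 FPKM (228 to 409.7). The subunits of the IL-12 family rose together: Il12b, shared by IL-12 and IL-23, from 4.59 to 148 FPKM, Il12a from 0.370 to 6.57 FPKM, Il23a from 0.367 to 7.81 FPKM, Il27 from 0.533 to 20.6 FPKM and Ebi3 from 36 to 240.4 FPKM. Il15, which sustains NK and memory T cells, rose from 10.7 to 74.6 FPKM, and Inhba, which encodes a subunit of activin, from 66.0 to 251 FPKM. Tnf rose from 44.6 to 91.1 FPKM, close to the 2-fold threshold, while Tgfb1 was at 123 and 97.4 FPKM and Il10 stayed under 1 FPKM. Il13 was the member that fell, from 2.17 to 0.537 FPKM.

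Within the IL-1 family, the called ligands rose and the called receptors fell. Il1a and Il1b rose from 92.7 to 389.5 FPKM and from 154 to 611 FPKM, Il33 from 4.58 to 21.6 FPKM and Il18 from 1.36 to 4.92 FPKM. The IL-36 ligand genes Il1f6 and Il1f9 rose from 0.0955 to 2.37 FPKM and from 3.87 to 28.3 FPKM. The soluble antagonists rose with the ligands: Il1rn, which blocks the IL-1 receptor, from 114 to 952 FPKM, and Il18bp, which traps IL-18, from 15.9 to 113 FPKM. The receptor genes Il1r1, Il1r2, Il1rl1 and Il18rap fell by 1.36 to 2.34 on the log2 scale, Il1r1 from 5.08 to 0.925 FPKM. In all, 8 of 14 tested members rose and 4 fell.

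Most genes of inflammasomes and cell death were not called, as among all genes. Of 28 tested, 6 rose (21.4%) and 2 fell (7.14%), and 24 had a log2 change above 0. Among all tested genes, 10.5% rose and 9.96% fell. Casp4, which senses cytosolic lipopolysaccharide, rose from 20.1 to 125 FPKM, Casp1 from 49.5 to 157 FPKM and Mlkl, the executor of necroptosis, from 19.9 to 81.4 FPKM. Cflar, an inhibitor of caspase 8, rose from 40.6 to 133 FPKM. Nlrp3 (19.9 and 23.6 FPKM) and Ripk3 (28.2 and 31.2 FPKM) were not called, and Nlrp1b and Bcl2 fell from 2.27 to 0.315 FPKM and from 5.63 to 2.51 FPKM.

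Antigen presentation differed between the MHC classes. Of 24 tested genes of class I presentation, 13 rose and none fell. B2m, the light chain of class I molecules, rose from 3455 FPKM (2122 to 4266) to 8294 FPKM (4998 to 10438), H2-K1 from 638 to 2003 FPKM, Tapbp, which loads peptides, from 172 to 612 FPKM, and the transporter gene Tap2 from 104 to 212 FPKM. The B2m call was lost when conditions were rescaled to the same total. Class I heavy chain genes are close copies and some share a locus in the table, such as H2-T23 and H2-T24, so their separate values are uncertain. Of 16 tested class II genes, 1 rose and 1 fell, H2-Oa and H2-Ob, which encode the chains of the class II modulator DO, with log2 changes of 1.26 and -1.25. The abundant class II transcripts H2-Ab1 and Cd74 had log2 changes of 0.45 and 0.22, and their intervals overlapped.

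Costimulatory and checkpoint ligands followed the class I genes in direction. Of 18 tested, 11 rose and none fell, with a median log2 change of 1.52. Cd40 rose from 37.0 FPKM (28.8 to 45.2) to 432 FPKM (325 to 539.5). Cd80 and Cd86, the ligands of CD28, rose from 55.6 to 207 FPKM and from 71.7 to 255 FPKM, and Cd70, the ligand of CD27, from 2.42 to 17.7 FPKM. Inhibitory ligands rose too, with Cd274 (PD-L1) from 85.8 to 398 FPKM, Cd200 from 18.9 to 119 FPKM and Lgals9 from 81.4 to 425 FPKM, whereas Pdcd1lg2 (PD-L2) was at 77.4 and 118 FPKM. Of 18 tested genes of dendritic cell maturation and migration, 12 rose and none fell, among them the actin bundler Fscn1 (from 136 to 523 FPKM), Marcksl1 (from 193 to 1027 FPKM) and Serpinb9 (from 109 to 365 FPKM), which encodes an inhibitor of granzyme B.

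Uptake receptors went both ways. Of 37 tested lectin, scavenger and Fc receptor genes, 12 rose and 14 fell, with a median log2 change of -0.09, beside 10.5% rises and 9.96% falls among all genes. Clec4e (Mincle), a receptor for mycobacterial glycolipid, rose from 12.6 to 234 FPKM, its partner Clec4d from 14.0 to 107 FPKM, the activating receptor Fcgr4 from 5.28 to 47.6 FPKM and Siglec1, an interferon-inducible sialic acid receptor, from 0.779 to 10.8 FPKM. The 2 largest falls of any called gene with at least 10 FPKM belonged to this list: Clec4b1 fell from 30.0 FPKM (22.8 to 37.2) to 0.329 FPKM (0 to 0.693) and Fcrls from 30.4 to 0.456 FPKM. The mannose receptor Mrc1 fell from 9.52 to 0.721 FPKM, the galactose lectins Mgl2 and Clec10a from 1115 to 184 FPKM and from 22.9 to 3.46 FPKM, and the lipid scavenger receptor Cd36 from 410.5 to 77.8 FPKM. When conditions were rescaled to the same total, 7 rose and 14 fell.

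Genes that IL-4 induces in macrophages fell or were not called. Of 20 tested genes of alternative activation and the IL-4 response, 8 fell and none rose, with a median log2 change of -0.80. Besides Mrc1, Mgl2 and Clec10a, which are also uptake receptors, Retnla fell from 499.9 to 166 FPKM, Alox15 from 36.7 to 6.70 FPKM, Ear2 from 382 to 171 FPKM, Ccl24 from 746 to 327 FPKM and the nuclear receptor gene Pparg from 12.5 to 5.86 FPKM. Arg1 was at 549 and 339 FPKM and was not called. Ccl17 and Il4ra, at 57.9 and 100.4 FPKM, were not called either. Chi3l3 was not tested, since its untreated value is listed at 0 with a flag.

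Macrophage and monocyte genes were divided as well, 10 rising (27.0%) and 12 falling (32.4%) of 37 tested, beside 10.5% and 9.96% among all genes. Cd14, a coreceptor for lipopolysaccharide, rose from 18.5 to 181 FPKM, Gpnmb from 60.6 to 449 FPKM and Ly6c2 from 169 to 727 FPKM. The myeloid factor Cebpa fell from 13.8 to 4.32 FPKM, the matrix gene Fn1 from 10.8 to 0.350 FPKM and the elastase gene Mmp12 from 977 to 343 FPKM. The 3 genes of complement C1q fell together, C1qa from 12.2 to 3.14 FPKM, C1qb from 52.4 to 19.7 FPKM and C1qc from 34.1 to 13.6 FPKM. Of 20 tested complement and coagulation genes, 9 rose and 5 fell. The rises included Cfb, a component of the alternative pathway, from 23.9 to 534 FPKM, Serping1, an inhibitor of C1, from 0.0369 to 5.80 FPKM, and C3ar1 from 8.56 to 26.8 FPKM. Of 16 tested BMDC markers, 3 rose (18.75%) and 1 (6.25%), Itgam (CD11b), fell from 164 to 77.9 FPKM. Zbtb46, a factor of classical dendritic cells, was at 17.6 and 15.9 FPKM, Itgax (CD11c) at 210.0 and 135 FPKM and Csf1r at 54.3 and 48.6 FPKM, with no call, whereas Flt3 was near 1 FPKM and the plasmacytoid marker Siglech near 0.

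**Figure D3:**
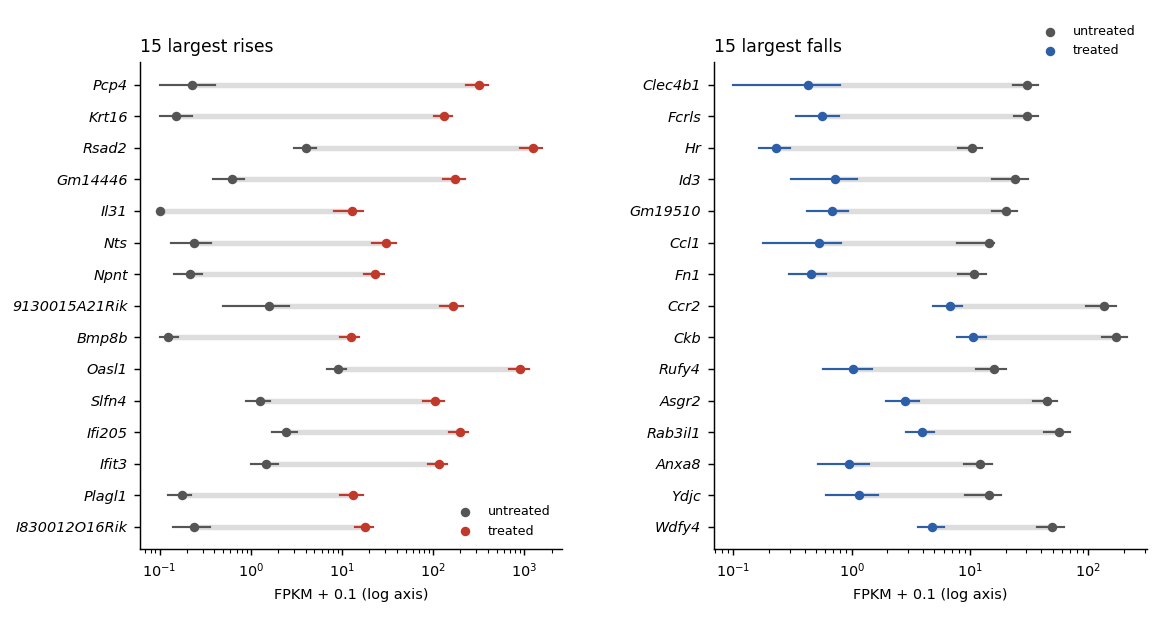
FPKM (0.1 added, logarithmic axis) without treatment and after c-di-GMP for the 15 largest rises and 15 largest falls in log2 among called genes with at least 10 FPKM in one condition. Points are the deposited values, thin lines the authors' intervals and grey bars join both conditions; Il31 is listed at 0 without treatment, and the intervals are separate for every gene shown.

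The 15 largest rises contained genes outside the interferon lists. Pcp4, a small calmodulin regulator known from neurons, rose from 0.127 FPKM (0 to 0.310) to 317 FPKM (228 to 404), and Krt16, an epithelial keratin, from 0.0523 FPKM (0 to 0.127) to 133 FPKM (102 to 163). Nts, the precursor of the peptide neurotensin, rose from 0.142 to 30.3 FPKM, Npnt, a matrix protein, from 0.117 to 23.1 FPKM, Bmp8b, a bone morphogenetic protein, from 0.0226 to 12.5 FPKM, and Plagl1, a zinc finger factor, from 0.0745 to 13.2 FPKM. Il31, a cytokine linked to itch, was listed at 0 and then at 12.9 FPKM (8.10 to 16.8). The remaining 8 were Rsad2, Oasl1, Ifit3, the p200 family gene Ifi205 (from 2.37 to 197 FPKM), Slfn4 (from 1.17 to 105 FPKM), the IFIT relatives Gm14446 (from 0.518 to 176 FPKM) and I830012O16Rik (from 0.140 to 17.8 FPKM), and 9130015A21Rik (from 1.47 to 166 FPKM). Current RefSeq names of the IFIT relatives are Ifit1bl1 and Ifit3b, and their sequences are close to those of Ifit1 and Ifit3, which can move reads between them. In all, 8 genes that rose were listed at 0 without treatment, Ifnb1, Ifna4, Il31, Krt17, Orm1, Pax4, Kiss1 and A630012P03Rik.

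Among the 15 largest falls, beside Clec4b1, Fcrls, Ccl1, Fn1 and Ccr2, were regulators of transcription: Hr, a corepressor, fell from 10.2 to 0.131 FPKM, and Id3, an inhibitor of basic helix-loop-helix factors, from 24 to 0.621 FPKM. The creatine kinase gene Ckb fell from 171 to 10.6 FPKM, and the asialoglycoprotein receptor gene Asgr2 from 44.3 to 2.74 FPKM. Wdfy4, which conventional dendritic cells need for cross-presentation, fell from 49.5 to 4.71 FPKM. The others were Gm19510, Rufy4, Rab3il1, Anxa8 and Ydjc, with log2 changes between -4.89 and -3.65. The highest untreated level among these 15 was that of Ckb, and the largest losses in FPKM were found in other genes.

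The largest gains in FPKM after that of Ccl5 were in abundant transcripts. Fth1, the heavy chain of ferritin, rose from 2311 FPKM (1750.1 to 2870.5) to 10005 FPKM (6562 to 13456), Cst3, which encodes the protease inhibitor cystatin C, from 4409 to 9604 FPKM, and Srgn, a proteoglycan of secretory granules, from 517 to 2966 FPKM. B2m, Isg15, Irg1, Prdx1, Ifitm3 and H2-K1 made up the rest of the 10 largest gains. The call of Cst3 was lost when conditions were rescaled to the same total. The largest losses were in S100a8, which went from 2531 to 1105 FPKM, Plet1 (listed as 1600029D21Rik, from 1060.4 to 105 FPKM), Mgl2, S100a9 (from 1350.4 to 643 FPKM) and Lpl, the lipoprotein lipase (from 1089.8 to 411 FPKM). For S100a8 the deposited FPKM lies above the upper bound of its own interval in both conditions (1204 to 2169 and 538 to 966), as it does for 73 genes at 1 FPKM or more without treatment and 77 after it. Mmp12, Crip1, S100a4 (from 864 to 254 FPKM), Cotl1 and S100a6 (from 643 to 192 FPKM) completed the 10. At the threshold itself, Vamp3 was called (32.1 to 64.3 FPKM) and Grcc10 was not (49.2 to 98.5 FPKM), and Wdr3 was called (19.4 to 9.63 FPKM) and Alyref was not (75.6 to 37.8 FPKM).

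Metabolic genes of the inflammatory macrophage were strongly induced. Ptgs2 (cyclooxygenase 2) rose from 1.28 FPKM (0.883 to 1.68) to 92.1 FPKM (69.7 to 114), Nos2 (inducible nitric oxide synthase) from 15.2 to 334 FPKM and Irg1 (now Acod1, which makes itaconate) from 164 to 1717 FPKM. Slc7a2, an arginine transporter, rose from 41.7 to 212 FPKM, Arg2 from 1.65 to 11.7 FPKM and Ido1, which degrades tryptophan, from 0.447 to 3.36 FPKM. Of 15 tested genes of nitric oxide, arginine, tryptophan and itaconate metabolism, 8 rose and none fell, a count that includes Ptgs2, which that list also held although it is an eicosanoid enzyme and is counted again among those. Of 20 tested eicosanoid genes, 6 rose and 5 fell, which differed by enzyme: Ptgs2 and the prostaglandin E synthase gene Ptges (from 0.470 to 20.8 FPKM) rose, and Ptgs1 (cyclooxygenase 1), the thromboxane synthase gene Tbxas1, Alox15 and the leukotriene gene Lta4h fell from 96.4 to 14.6 FPKM, from 62.8 to 14.9 FPKM, from 36.7 to 6.70 FPKM and from 60.3 to 27.0 FPKM. The balance of this list was 4 rises and 7 falls when conditions were rescaled to the same total.

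Genes of oxidative phosphorylation had lower values after c-di-GMP, mostly short of the call. All 36 tested genes of oxidative phosphorylation and the citrate cycle had values below those of untreated BMDCs, with a median log2 change of -0.59, but only 6 passed the call: Idh2, Ppargc1b, Fh1, Idh3a, Mdh2 and Atp5g1. Idh2, the mitochondrial isocitrate dehydrogenase, fell from 50.1 to 11.1 FPKM, and Fh1 (fumarase) from 117 to 34.9 FPKM. The median of this list was -0.28 in Tmem173-/- BMDCs, where none of its genes was called. Under rescaling to the same total, 11 fell in the wild type. Of 25 glycolysis genes 2 rose and 2 fell (8.0% each), near the shares among all genes of 10.5% and 9.96%. Hk3 rose from 68.3 to 205 FPKM and Pfkfb3 from 9.58 to 23.4 FPKM. Aldoc fell from 10.3 to 4.18 FPKM and Fbp1, which acts in gluconeogenesis, from 3.43 to 0.524 FPKM. Gapdh and Ldha had log2 changes of -0.10 and -0.23. Of 36 genes of cholesterol and fatty acid synthesis, 8 fell (22.2%) and 3 rose (8.33%). The desaturase genes Scd1 and Scd2 fell from 11.2 to 1.66 FPKM and from 93.2 to 16.2 FPKM and the fatty acid synthase gene Fasn from 18.9 to 6.29 FPKM. Ch25h, the interferon-inducible cholesterol 25-hydroxylase, rose from 2.37 to 7.54 FPKM.

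Antioxidant, metallothionein and iron genes gave 12 rises and 3 falls of 27 tested. Hmox1 (heme oxygenase 1) rose from 85.9 to 423 FPKM, Mt2 from 105 to 443 FPKM, Sod2 from 55.3 to 121 FPKM and Slc11a1, a metal exporter of phagosomes, from 6.42 to 23.6 FPKM. Tfrc, the transferrin receptor that brings iron into cells, fell from 69.3 to 10.9 FPKM, opposite to ferritin, and Mt3 fell from 40.5 to 7.87 FPKM. Among the genes of this list without a call, Nqo1, Gclm and Txnrd1 had log2 changes of 0.30, 0.09 and 0.26. Lysosomal genes gave 5 rises (20.8%) and no fall of 24 tested. Among them, Ctsk rose from 2.29 to 19.2 FPKM, Npc2 from 179 to 787 FPKM and Ctsb from 224 to 609 FPKM.

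Cell cycle and DNA replication genes fell more uniformly than any other list examined. Of 49 tested, 33 fell and 3 rose, beside 9.96% falls among all genes, with a median log2 change of -1.56. Mitotic genes were among those that fell: Cdc20, an activator of the anaphase-promoting complex, fell from 30.4 to 4.12 FPKM, Ccnb1 (cyclin B1) from 38.1 to 8.0 FPKM and Plk1 from 22.1 to 5.35 FPKM. The replicative helicase genes Mcm2 to Mcm7 all fell, by 1.08 to 1.73 on the log2 scale, Rrm2 of nucleotide synthesis fell from 68.5 to 21.7 FPKM, and Myc from 44.1 to 9.03 FPKM. Mki67, at 26.8 and 21 FPKM, and Pcna, at 197 and 143 FPKM, were not called. The rises were Ccne1 (cyclin E1), from 27.4 to 113 FPKM, Ccnd2, from 189.8 to 394 FPKM, and Cdkn1a (the inhibitor p21), from 416 to 834 FPKM. The calls of Ccnd2 and Cdkn1a were close to the threshold, and 1 rise was left when conditions were rescaled to the same total. Of 44 ribosomal protein genes none was called, although 42 had lower values after treatment (median log2 change, -0.49), and this median was -0.44 in Tmem173-/- BMDCs. Genes used as references in qPCR were uneven: B2m rose and Tfrc fell, Hprt and Ppia had log2 changes of -0.66 and -0.58, and those nearest to 0 were Ywhaz (0.08), Gapdh (-0.10) and Tbp (-0.14).

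Some markers of further cell types were abundant. Prg2, the eosinophil major basic protein, was at 676 and 676 FPKM and Epx, eosinophil peroxidase, at 73.3 and 65.3 FPKM. Hdc, the histidine decarboxylase of mast cells and basophils, rose from 3.45 to 79.1 FPKM. Of 15 tested markers of mast cells, basophils and eosinophils no other rose and 3 fell. The summed FPKM of that list, Hdc included, was 863 and 922, a difference smaller than the gain of Hdc alone. The mast cell tryptase genes Tpsab1 and Tpsb2 were listed at 0 in both conditions, and the part of these cells in the rise of Hdc was not tested. The B cell marker Ms4a1 was under 1 FPKM in both conditions. Of fibroblast and endothelial markers, 3 were tested and 2 rose, Col1a2 from 0.0208 to 6.78 FPKM and Kdr from 0.111 to 2.78 FPKM. Both entered the comparison only through their treated value, so 2 of 3 is not a share of the list. Without the filter on low FPKM, 2 of 13 rose and the median log2 change was 0.08. Col1a1, Col3a1, Pdgfra and Cdh5 were under 1 FPKM in both conditions.

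Genes that responded lay side by side at several loci. Windows of 10 neighbouring tested genes held a median of 1 rise and 1 fall. Positions are those of the deposited table, which match GRCm38 although the submitters' notes name mm9. In the densest, on chromosome 1 (173521311 to 174031755), all 10 genes rose, from 1.88 for Mndal to 6.32 for Ifi205 on the log2 scale. This is the cluster of p200 genes, whose products include nucleic acid sensors, with Ifi204 (from 14.8 to 187 FPKM), Mnda (from 6.39 to 77.9 FPKM) and Pyhin1 (from 4.94 to 121 FPKM). The next, on chromosome 7 (103812524 to 104535361), held 9 rises, 8 of them TRIM genes from Trim6 to Trim30e-ps1, with Trim30d from 13.2 to 105 FPKM, and the haemoglobin gene Hbb-b1 at their edge (from 9.99 to 35.7 FPKM). The third, on chromosome 1 (84906705 to 85908698), held 8, including Sp100, Sp110 and Sp140, nuclear body proteins that rose from 46.4 to 163 FPKM, from 65.5 to 195 FPKM and from 43.3 to 197 FPKM. Members of such clusters are copies of one another, so reads can be shared among them.

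Falls reached at most 7 in a window, against 10 rises. That window, on chromosome 7 (43797577 to 44548815), held the kallikrein genes Klk8, Klk15, Klk1b9 and Klk1b11, the ETS factor Spib (from 6.20 to 0.792 FPKM) and Pold1, a subunit of DNA polymerase δ. The second, on chromosome 4 (136143822 to 136898844), held Id3, E2f2, Tcea3 and the C1q genes, and the third, on chromosome 9 (106194953 to 106452918), Ppm1m, Twf2, Dusp7, Acy1, Abhd14a and Abhd14b, next to Tlr9, which rose.

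**Figure D4:**
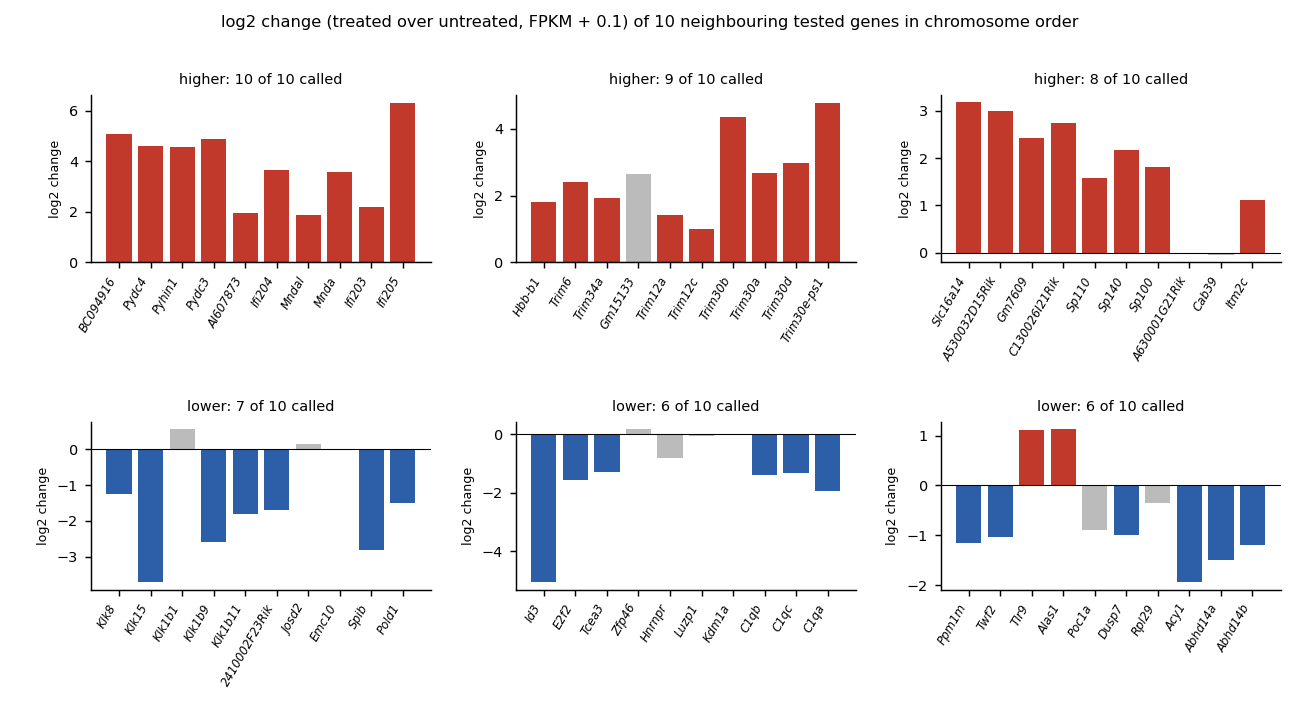
log2 change (treated over untreated, 0.1 FPKM added) of 10 neighbouring tested genes in the 3 windows with most rises (upper row) and the 3 with most falls (lower row), in chromosome order. Red bars were called higher, blue bars called lower, grey bars not called; all 10 genes of the p200 cluster (upper left) rose, and no window held more than 7 falls.

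The wild-type calls were set beside the responses of the knockouts, each against its own untreated condition, so that no sample is shared. The targeted genes were checked first: Tmem173 had 8.97 and 7.49 FPKM in the untreated and treated columns labelled Tmem173-/-, Irf1 had 25.9 and 116 FPKM in those labelled Irf1-/-, and in those labelled Irf3/7-/- Irf3 had 7.74 and 20.2 FPKM and Irf7 1.07 and 4.97 FPKM. Wild-type BMDCs had 103 and 118 FPKM of Tmem173, 149 and 245 of Irf1, 19.9 and 15.8 of Irf3, and 15.2 and 687 of Irf7. A gene-wide FPKM does not show which exons were counted. The column of treated Irf3/7-/- BMDCs thus held far less Irf7 than that of treated wild-type BMDCs, but no less Irf3. That of treated Irf1-/- BMDCs held Irf1 transcript, below the wild-type value. These levels do not show loss of Irf3 or Irf1, for which the genotype rests on the labels. In the columns labelled Tmem173-/-, 5 of 10867 genes were called higher (0.046%) and 1 lower (0.0092%), reading the column named GDP as the treated one. None of the wild-type rises was called there, their median log2 change was 0.03 with quartiles of -0.17 and 0.24, and the falls had a median of -0.07. Rsad2 was at 0.684 and 1.46 FPKM and Cdc20 at 32.5 and 26.0 FPKM in these cells.

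In the columns labelled as IRF knockouts most of the response recurred. Irf1-/- BMDCs had 9.67% of 11164 genes called higher and 7.81% lower, and Irf3/7-/- BMDCs 10.2% of 11283 genes higher and 7.68% lower. Of the wild-type rises, 801 (68.2%) rose in Irf1-/- and 779 (66.3%) in Irf3/7-/- BMDCs, and 605 rose in both. Of the falls, 673 recurred in each, and 468 in both. Calls of the opposite sign in any knockout were found for 9 genes, among them the caveolin gene Cav1, which rose in wild-type BMDCs (from 12.3 to 27.7 FPKM) and fell in Irf3/7-/- BMDCs (43.2 to 13.4 FPKM), and Klf4, which rose in wild-type (from 7.58 to 20.8 FPKM) and fell in Irf1-/- BMDCs (10.6 to 1.81 FPKM). Mt3 fell in the wild type and in Irf1-/- BMDCs and rose in Irf3/7-/- BMDCs (45.7 to 164 FPKM).

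A minority of wild-type calls had little counterpart in either IRF knockout. Of the wild-type calls, 200 rises and 238 falls were called the same way in neither IRF knockout. By a stricter measure, neither knockout moved by 1.5-fold in the wild-type direction for 47 rises and 35 falls, of which 19 and 11 had at least 10 FPKM in wild-type BMDCs. Ccne1 was at 23.6 and 21.9 FPKM in Irf1-/- and at 21.8 and 15.8 FPKM in Irf3/7-/- BMDCs. Psip1 rose in the wild type (from 15.4 to 39.7 FPKM) and had log2 changes of -0.25 and 0.11 in the knockouts. The difference between genotypes was not tested. The median of the antiviral effectors was 0.14 in Tmem173-/- BMDCs, against 3.83 in Irf1-/- and 2.99 in Irf3/7-/- BMDCs. These changes start from each genotype's own untreated level, so a larger one is not a higher treated level. Untreated Isg15 was at 57.7 FPKM in wild-type, 17.0 in Irf1-/- and 32.8 in Irf3/7-/- BMDCs, and treated Isg15 at 2262, 2308 and 1339 FPKM. Rsad2 was at 3.99, 2.02 and 2.59 FPKM untreated and at 1245, 362 and 518 FPKM treated, in the same order.

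**Figure D5:**
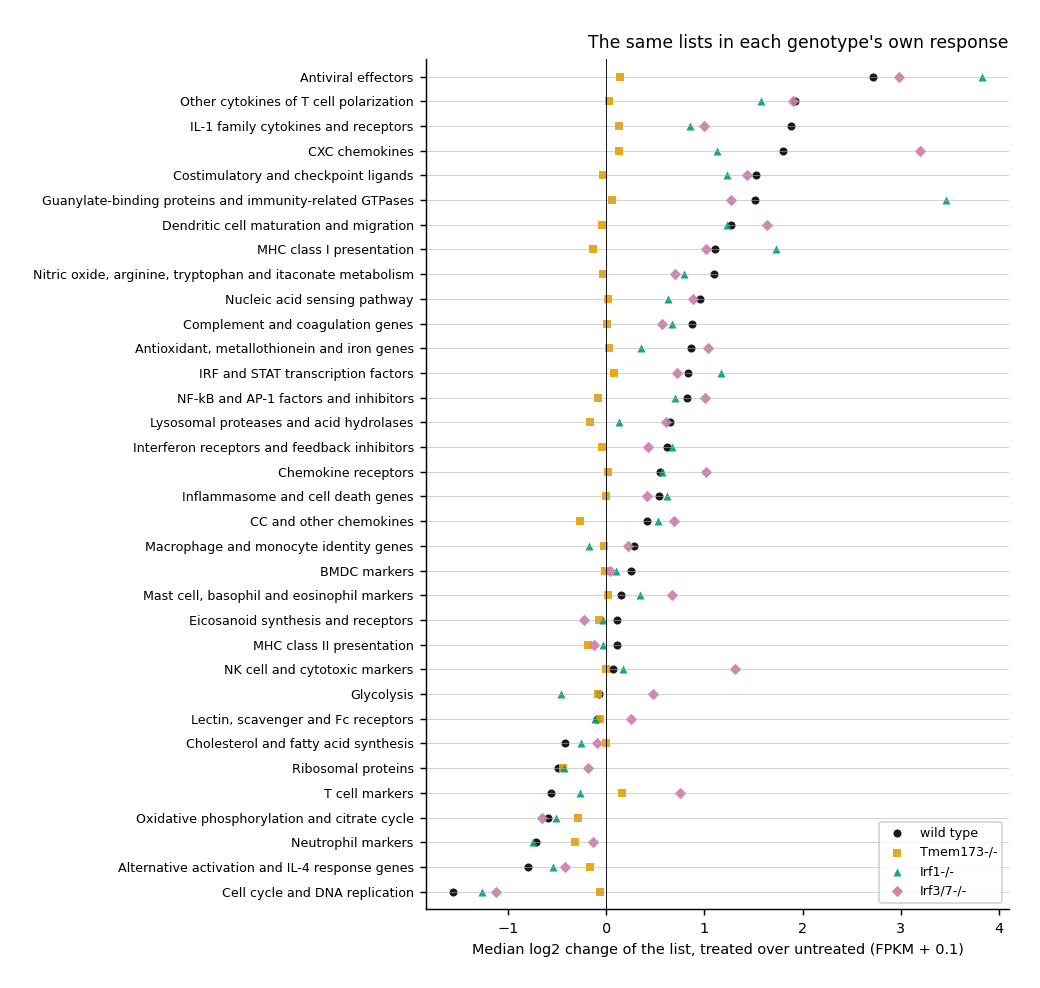
Median log2 change (treated over untreated, 0.1 FPKM added) of 34 gene lists in the own response of each genotype, over the genes tested in wild-type BMDCs. Black circles are wild type, orange squares Tmem173-/-, green triangles Irf1-/- and pink diamonds Irf3/7-/-; the squares lie between -0.44 (ribosomal proteins) and 0.16 (T cell markers), with cell cycle genes at -0.06 against -1.56 in the wild type.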

How the data were processed

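RNA-seq of 16 BMDC samples (35-bp paired reads) was processed by the authors, who deposited Cuffdiff FPKM with interval bounds and a status per gene for 8 conditions, 2 samples combined in each. Per the submitters' processing notes the tool was Cuffdiff 1.06 and the build mm9. However, 98.95% of loci with a GENCODE gene name overlap that gene in GRCm38. Libraries came from a stranded kit, and the methods name an opposing-strand setting for SeqMonk. The aligner, the annotation and the strand setting of Cuffdiff are not given in the sources used here. Columns of 4 further values of no sample were not used. The column named TM173GDP was read as treated Tmem173-/-.

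Calls were computed with Python 3.11.15, NumPy 2.4.6 and pandas 2.3.3, from log2(FPKM + 0.1), which understates changes of low genes. No count test was possible on FPKM, and no p-value was computed. Whether replicates were separate cultures is not stated. The calling step was checked on simulated data. Members and lists were chosen with earlier results of these data known. Genes named were list members, the 15 largest rises and falls with at least 10 FPKM, the 10 largest gains and losses in FPKM, the genes nearest the threshold and the genes called in the 3 densest windows per direction. Promoters came from RefSeq (GRCm38.p6). The 10 alternatives tried are described at the end.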

Additional observations from a re-analysis of the deposited data

How the results depend on the processing

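No paired analysis was possible because each condition has 1 combined value, and for the same reason no replicate could be left out. Of 10 alternatives (pseudocounts of 0.01 and 1 FPKM, no filter and a minimum of 5 FPKM, thresholds of 1.5-fold and 4-fold, centring, rescaling to the same total, fold change alone, and z from interval widths), only the 4-fold threshold moved the count of rises (to 399) or of falls (to 193) by over 1.5 times. The balance of rises and falls shifted towards rises at that threshold and towards falls on rescaling, which gave 860 rises and 1578 falls, against 1175 and 1116. Of 500 values for 50 named genes, 486 kept their call, 14 lost it (12 at 4-fold, and B2m at 1.03 and Cst3 at 0.89 on rescaling) and 0 reversed. The share of wild-type rises repeated in Tmem173-/- BMDCs, 0, became 0.0717% without a filter, 0.0835% by z, 0.0843% with 0.01 FPKM, 0.0856% on centring, 0.239% by fold alone, 0.349% on rescaling and 0.572% at 1.5-fold. That of falls, also 0, became 0.0661% at 1.5-fold, 0.176% by z and 0.41% by fold alone. The balance of rises over falls reversed in 6 of 400 values: chemokine receptors (-1 at 4-fold), eicosanoid genes (-3 on rescaling, -1 at 1.5-fold, -2 at 4-fold), macrophage genes (3 at 4-fold) and mast cell, basophil and eosinophil markers (1 at 4-fold). The causes were not tested. Windows of 20 neighbouring genes held at most 13 rises and 10 falls. Allowing a gap of 3 bases in the ISRE core in place of 2 gave 2.75% of promoters against 3.44%. Depth cannot be read from FPKM, and low values are limited by their intervals.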

Other observations

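Gene symbols that share a stem were grouped where 8 or more were tested, and the groups with the highest share of calls were described after their values were seen, with no test. They were picked from 173 stems, so high shares follow from the choice. Among all genes, 10.5% rose and 9.96% fell. Serpinb genes, which encode intracellular protease inhibitors, gave 5 rises and 1 fall of 8, with Serpinb2 going from 4.05 to 10.1 FPKM and Serpinb9b from 69.1 to 184 FPKM. Parp genes, ADP-ribosyltransferases, gave 6 rises of 12, such as Parp14 (from 41 to 138 FPKM) and Parp10 (from 17.6 to 79.2 FPKM). Slfn (Schlafen) genes gave 7 rises of 8. Matrix metalloproteinase genes were divided, with 4 rises, among them Mmp14 (from 19 to 48.2 FPKM), and 4 falls of 9. Ligands of the TNF superfamily gave 5 rises, such as Tnfsf9 (from 3.08 to 18.2 FPKM), the ligand of 4-1BB, and Tnfsf15 (from 46.0 to 121 FPKM), and 2 falls of 11.

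Of the stems with many falls, Clec, of C-type lectins, had 8 falls and 3 rises of 18, and Fkbp, of FK506-binding proteins, 4 falls and 1 rise of 10. Sept genes, which encode the septin filaments, gave 5 falls and no rise of 11, with Sept3 going from 1.71 to 0.494 FPKM. Nup genes, components of the nuclear pore, gave 7 falls of 20, such as Nup210 (from 23.7 to 6.53 FPKM). Ribosomal RNA processing genes gave 4 falls of 8 under the stem Rrp, 3 of 9 under Utp and 3 of 10 under Exosc, the RNA exosome, with no rise in any of them. Kinesin genes gave 10 falls of 26, of mitotic members such as Kif11 (from 21 to 4.59 FPKM), and 3 rises, of Kif1b, Kif5c and Kif9. Gimap genes, known from lymphocytes, gave 3 falls of 8. Among all genes, 9.96% fell.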
